A study of Mus musculus with 8 samples.

Results

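Collagen chains are the proteins that coil around each other to form collagens, and in mouse each chain is named by Col, the number of its type, the letter a and the number of the chain. Of the 50600 rows of the deposited expression table, 44 carried such a name with nothing after it, and these 44 genes were taken as the collagen chains whatever their values. Of the 44, 9 were detected, which here means a mean value of 1 or more over the 8 libraries. The level and response of those 9 are described, and 5 of them (Col18a1, Col7a1, Col4a1, Col4a2 and Col5a1) had the mean of 5 or more that was required for the test across all genes.

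RNA sequencing was done on mouse embryonic stem cells that carry a doxycycline-inducible c-Jun transgene (c-Jun_TetOn_mESC), a system in which forced JUN expression drives the cells out of pluripotency. The cells came from OG2 transgenic mice of a mixed strain that is 1/2 129SVJ, 3/8 C57B6 and 1/8 CBA, were grown without feeders in 2i/LIF and were used at passage 12. Every library came from cells given doxycycline at 2 µg/ml, the inducer of the transgene, so all 4 groups were under JUN induction, and the groups differed in what was added with it for 6 h: the solvent DMSO, the BRG1 bromodomain inhibitor PFI-3, the BRD7 and BRD9 bromodomain inhibitor BI-9564, or both compounds together (P+B). BRG1, BRD7 and BRD9 are subunits of BAF chromatin remodelling complexes, and the comparisons ask which genes respond when these domains are blocked during JUN induction. The labels give 6 h for doxycycline and compound together, while a legend in the study gives a JUN induction longer than the compound treatment, so the length of induction is uncertain. Each group had 2 libraries, numbered 1 and 2. The labels do not say whether the 2 came from separate cultures, so the spread between them may be technical. No library without doxycycline was analysed here, so a difference from DMSO is a difference among JUN-induced cells.

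Collagens are the main structural proteins of the extracellular matrix. Fibrillar chains build the fibrils of connective tissue, type IV chains build the network of basement membranes, type XVIII collagen is a heparan sulphate bearing member of basement membranes, and type VII collagen forms the anchoring fibrils that tie epithelial basement membranes to the tissue beneath. Early mouse embryonic cells are known for making basement membrane collagen, while the abundant fibrillar collagens are products of fibroblasts, bone and cartilage cells.

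The upstream sequence is shown for Col7a1, the collagen gene with a called change, and for Col5a1, the tested gene with the largest difference in the other direction. Both are the 250 bases before the annotated RefSeq start, on the + strand of GRCm38.p6 (mm10), and no annotated exon lies in either. Col7a1 runs from 108953586 to 108984875 on the + strand of chromosome 9 and Col5a1 from 27886425 to 28039514 on the + strand of chromosome 2. The capitals mark GGGCGG, the core of the GC box that SP family factors bind, or its reverse complement CCGCCC.
Col7a1, chr9:108953336-108953585: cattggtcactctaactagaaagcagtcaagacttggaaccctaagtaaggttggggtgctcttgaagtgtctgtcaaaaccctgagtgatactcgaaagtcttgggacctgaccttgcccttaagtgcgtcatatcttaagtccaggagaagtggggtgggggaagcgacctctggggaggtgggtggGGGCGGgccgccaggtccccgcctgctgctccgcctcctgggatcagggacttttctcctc
Col5a1, chr2:27886175-27886424: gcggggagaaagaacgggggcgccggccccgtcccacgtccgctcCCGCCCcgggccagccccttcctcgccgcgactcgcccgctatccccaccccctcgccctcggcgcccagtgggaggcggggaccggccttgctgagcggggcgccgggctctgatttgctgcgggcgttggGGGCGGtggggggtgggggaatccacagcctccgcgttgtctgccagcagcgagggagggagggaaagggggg

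Col4a1 and Col4a2, which encode the chains of the most widespread type IV collagen, lie head to head on chromosome 8. Col4a1 runs on the - strand from 11198423 to 11312826 and Col4a2 on the + strand from 11312805 to 11449287, so that their annotated starting exons share 22 bases on opposite strands. That stretch is shown because reads from it cannot be assigned without strand, and the strand setting of the counting was not given in the sources used here. The stretch holds GGGCGG, which is left in small letters here.
Shared start of Col4a1 and Col4a2, + strand, chr8:11312805-11312826: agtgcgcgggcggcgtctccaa

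A few short motifs were counted on both strands of the RefSeq windows that run from 250 bases before to 50 bases after a start, 300 bases in all, and the 9 detected collagen genes had 10 such windows, with Col18a1 holding a pair of them. GGGCGG was found in 9 of the 10 windows and in 35.7% of 32851 windows over all genes, and the window without it was one of the Col18a1 starts. The windows of Col4a1 and Col4a2 overlap, so they share matches and are not independent. The GC content of the 10 windows ran from 58.7 to 75%, above the median of 52.7% over all windows. TGANTCA, the consensus of AP-1, the factor that JUN forms with FOS family partners, was in 0 of the 10 windows and in 7.81% of all. TGACGTCA, the cyclic AMP response element, was in 0 of the 10 and in 1.79% of all. TATAAA was in 0 of the 10 and in 13.6% of all. These are descriptions of letters in these windows, and as only GGGCGG was found, no matches of different motifs overlap.

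The deposited values are TPM (a length-scaled share of all transcripts) that were made whole numbers. The scale takes gene length into account, so levels can be compared between genes. Each library summed to between 991574 and 991897, and the number of reads behind them was unknown. Jun itself was read at between 1569 and 3011 in all 8 libraries, with replicate 2 above replicate 1 in every group. The 9 embryonic stem cell markers were all present, with Pou5f1 between 1104 and 1333. The collagen values could also be touched by other cell types, so their marker lists were read for each library. Of 10 fibroblast markers 2 were detected, with sums of 3 to 14 per library and Dcn, Lum, Postn, Prrx1, Twist2, Fap and Meox1 at 0 in all libraries. Of 10 primitive and parietal endoderm markers 3 were detected, with sums of 3 to 10 and Sox7, Foxa2, Pdgfra, Cubn and Amn at 0 in all libraries. In bulk RNA, fewer cells of a type and less RNA per cell cannot be told apart.

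Col18a1, Col7a1 and Col4a1 were the collagen genes with the highest levels. Col18a1, the type XVIII chain whose cleaved end is endostatin, was the highest, with a mean over the 8 libraries of 84.75, which placed it at rank 1958 of the 50600 rows. Col7a1 followed with a mean of 26.5, Col4a1 with 18.75, Col4a2 with 7.375 and Col5a1 with 6.5. The remaining 4 detected genes, Col27a1, Col5a3, Col6a5 and Col9a2, had means of 3.25, 2.875, 2.375 and 2.125. The ranges of these 4 overlap over the libraries of all treatments, so their order is not firm. The same ranges of Col4a2 (5 to 11) and Col5a1 (4 to 11) overlap. Library by library, Col4a2 was above Col5a1 in both DMSO and both PFI-3 libraries, BI-9564 replicate 1 and P+B replicate 2. It was below Col5a1 in BI-9564 replicate 2 and P+B replicate 1. Col18a1, from 69 to 99, lay above Col7a1 in every library. Col7a1 (14 to 47) was above Col4a1 (14 to 26) in both DMSO libraries, both PFI-3 libraries and BI-9564 replicate 1, and below it in the other 3.

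The other 35 collagen genes had means under 1. Of these, 24 were at 0 in every library and 11 were above 0 somewhere, with 4 as the highest value, for Col16a1 in PFI-3 replicate 1. The genes nearest to the limit were Col9a2 on the inside, with a mean of 2.13, and Col9a3 on the outside, with 0.875. The chains of the major fibrillar collagens were at or near 0, with means of 0.25 for Col1a1, 0 for Col1a2, 0.125 for Col3a1 and 0.25 for Col2a1. By class, 3 of 11 fibrillar genes were detected (Col5a1, Col5a3 and Col27a1), 2 of 9 network-forming genes (Col4a1 and Col4a2), 1 of 6 beaded filament genes (Col6a5) and 1 of 9 fibril-associated genes (Col9a2). The single anchoring fibril gene (Col7a1) and 1 of the 2 multiplexins (Col18a1) were detected, against 0 of the 4 transmembrane collagens and 0 of the 2 remaining genes. Within type IV, the Col4a1 and Col4a2 genes were detected and the other network-forming genes were each at 0 in all libraries.

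**Figure D1:**
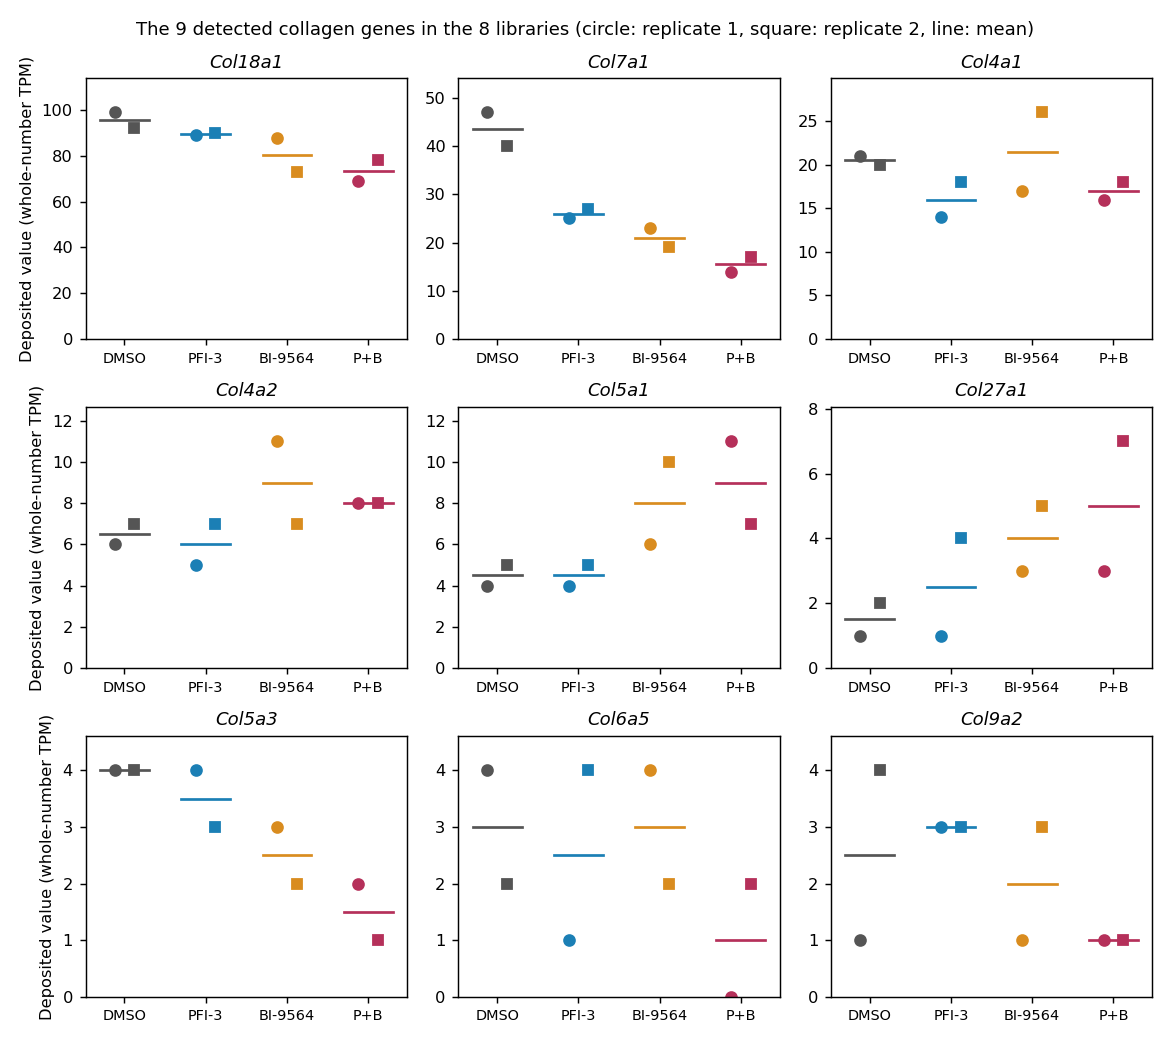
Deposited value (whole-number TPM, y axis from 0, own scale for each gene) of the 9 detected collagen genes in the 4 groups, with a circle for replicate 1, a square for replicate 2 and a line for the group mean. Col7a1 was at 47 and 40 under DMSO and at 14 and 17 under P+B, with no overlap between any of the 4 groups.

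Among the tested collagen genes, only Col7a1 passed the test as lower with P+B. It was at 47 and 40 under DMSO, 25 and 27 under PFI-3, 23 and 19 under BI-9564 and 14 and 17 under P+B. The lowest DMSO library stood above both libraries of every inhibitor group, and no pair of groups overlapped, with DMSO highest, PFI-3 and BI-9564 next and P+B lowest. The mean with P+B was 35.6% of the DMSO mean, against 48.3% with BI-9564 and 59.8% with PFI-3.

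With P+B, Col7a1 differed from DMSO by -1.43 on the log2(value + 1) scale (SE 0.17, 95% interval -1.82 to -1.05), with an adjusted p of 0.00368 by limma with Benjamini-Hochberg adjustment over 10222 genes. A gene was called when its adjusted p was under 0.05 and its fold was 1.5 or more. Lower calls were made for 278 of the 10222 genes (2.72%), and Col7a1 was the 1 collagen gene among the 5 tested. Within same-numbered libraries the difference was -1.68 for replicate 1 and -1.19 for replicate 2. The call was lost without DMSO replicate 1, the higher of the DMSO libraries (-1.32, adjusted p = 0.0562), and when the spread was estimated from the 4 compared libraries alone (adjusted p = 0.1), a fit in which no gene of the 10222 passed.

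With BI-9564, Col7a1 differed from DMSO by -1.02 (SE 0.17, 95% interval -1.41 to -0.63), with an adjusted p of 0.0703 by limma. With the replicate number as a block the adjusted p was 0.0321 and the gene passed as lower, where lower calls numbered 106 (1.04%) against 8 (0.0783%) without the block. The difference was -1.0 in replicate 1 and -1.04 in replicate 2. With PFI-3 the difference from DMSO was -0.72 (SE 0.17, 95% interval -1.10 to -0.33) with an adjusted p of 0.506. There limma called 0 of the 10222 genes (0%), with 694 at an unadjusted p under 0.05. The comparisons against DMSO share the DMSO libraries, so their values are not independent of each other.

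The inhibitor groups were also set against each other for Col7a1. P+B differed from PFI-3 by -0.72 (95% interval -1.10 to -0.33, limma adjusted p = 0.0911), from BI-9564 by -0.42 (95% interval -0.80 to -0.03, adjusted p = 0.585), and BI-9564 differed from PFI-3 by -0.30 (95% interval -0.69 to 0.09, adjusted p = 0.479). None of these 3 passed the test, in which 1.05%, 0.196% and 0.0783% of the 10222 genes were called lower. The value with both compounds was compared with the sum of the 2 single differences on the log2 scale, and it lay 0.30 above that sum (95% interval -0.25 to 0.85, limma adjusted p = 1), so no departure from additivity on this scale was detectable. No gene of the 10222 passed that comparison (0%). PFI-3 and BI-9564 are distinct compounds with distinct bromodomain targets, and each was read at a single time.

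Because the values were whole numbers, the fold for Col7a1 was also bounded. The DMSO mean was 2.81 times the P+B mean as deposited, and between 2.64 and 2.93 times if the decimals had been dropped or rounded away. The same fold was 2.07 with BI-9564 (1.98 to 2.15) and 1.67 with PFI-3 (1.61 to 1.73). The fold fitted on the log2(value + 1) scale with P+B was 2.7. The annotation places the microRNA gene Mir711 inside Col7a1 on the same strand, and its row was at 0 in all libraries.

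**Figure D2:**
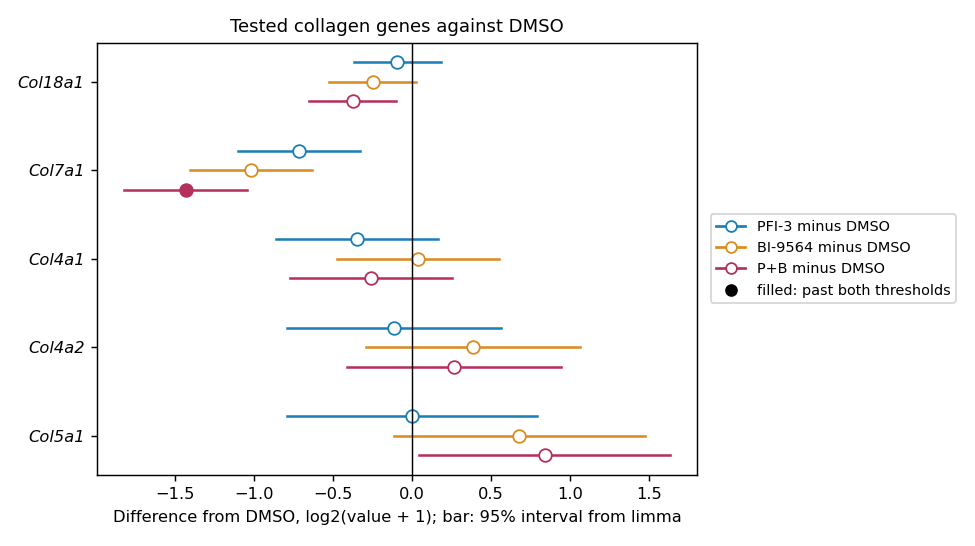
Difference from DMSO on the log2(value + 1) scale (x axis) for the 5 tested collagen genes, with a circle for the estimate and a bar for its 95% interval from limma, by inhibitor group. The filled circle, Col7a1 with P+B at -1.43, was the 1 of the 15 estimates past both thresholds, and the Col7a1 intervals of the 3 groups lay below 0.

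Col18a1 lies on the - strand of chromosome 10, from 77052178 to 77166548. It was at 99 and 92 under DMSO, 89 and 90 under PFI-3, 88 and 73 under BI-9564 and 69 and 78 under P+B. Both libraries of each inhibitor group were under both DMSO libraries, and BI-9564 spread the most. Its mean with P+B was 77% of the DMSO mean, a difference of -0.38 (SE 0.12, 95% interval -0.65 to -0.10) that did not pass the test (limma adjusted p = 0.116). With BI-9564 the difference was -0.25 (95% interval -0.53 to 0.03, adjusted p = 0.379), and with PFI-3 it was -0.09 (adjusted p = 0.951). Slc19a1, a folate carrier gene that overlaps Col18a1 on the other strand, was at 17 and 27 with DMSO and at 23 and 15 with P+B, with overlapping groups.

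The level of Col7a1 was also set against that of Col18a1, as a description. Col7a1 was 47.5% and 43.5% of Col18a1 under DMSO, 28.1% and 30% under PFI-3, 26.1% and 26% under BI-9564 and 20.3% and 21.8% under P+B. The groups did not overlap in this ratio, and its lowest values were those with P+B.

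The type IV genes did not pass in any comparison. Col4a1 was at 21 and 20 under DMSO, 14 and 18 under PFI-3, 17 and 26 under BI-9564 and 16 and 18 under P+B. The BI-9564 libraries lay on both sides of DMSO, while those of PFI-3 and P+B lay below it. Its difference with P+B was -0.26 (95% interval -0.77 to 0.26, limma adjusted p = 0.543).

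Col4a2 was at 6 and 7 under DMSO, 5 and 7 under PFI-3, 11 and 7 under BI-9564 and 8 and 8 under P+B. The P+B libraries were the only ones wholly above DMSO. Its difference with P+B was 0.27 (95% interval -0.41 to 0.94, limma adjusted p = 0.643). The ratio of Col4a1 to Col4a2 RNA was 3.5 and 2.86 under DMSO, 2.8 and 2.57 under PFI-3, 1.55 and 3.71 under BI-9564 and 2 and 2.25 under P+B. Values of Col4a2 near 7 make this ratio coarse, and the 2 BI-9564 libraries gave both its lowest and its highest value.

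Col5a1 encodes the chain of type V collagen that helps start fibrils. It was at 4 and 5 under DMSO, 4 and 5 under PFI-3, 6 and 10 under BI-9564 and 11 and 7 under P+B. Both libraries with BI-9564 or P+B were above all libraries with DMSO or PFI-3. The difference with P+B was 0.84 (SE 0.35, 95% interval 0.045 to 1.63), which did not pass (limma adjusted p = 0.201), and with BI-9564 it was 0.68 (95% interval -0.11 to 1.47, adjusted p = 0.4). Without P+B replicate 1 the difference with P+B was 0.55 (adjusted p = 0.51) and without P+B replicate 2 it was 1.13 (adjusted p = 0.234). With BI-9564 it was 1.0 without BI-9564 replicate 1 (adjusted p = 0.476) and 0.35 without BI-9564 replicate 2 (adjusted p = 0.77). Higher calls with P+B were made for 131 of the 10222 genes (1.28%), and 0 of the 5 tested collagen genes was among them. Transcripts annotated on its other strand, 2810430I11Rik and Gm13372, were at 0 in all libraries.

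The 4 genes under a mean of 5 were fitted only among the 13101 genes with a mean of 1 or more, and none was called in any comparison, with or without the replicate block. Over all 13101 genes the share called in either direction was 2.59% for P+B against DMSO, 0.588% against PFI-3 and 0.0153% against BI-9564, and 0% in the other comparisons. With the block it was 4.94%, 1.76% and 0.275% for those 3, 0.313% for BI-9564 against DMSO, 0.282% for BI-9564 against PFI-3 and 0% in the other comparisons. Col27a1, a fibrillar chain of cartilage on chromosome 4 from 63214004 to 63334991, was at 1 and 2 under DMSO, 1 and 4 under PFI-3, 3 and 5 under BI-9564 and 3 and 7 under P+B. Both BI-9564 and both P+B libraries stood above DMSO, and with P+B the difference was 1.21 (SE 0.57, limma adjusted p = 0.283).

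Col5a3, another chain of type V collagen, on chromosome 9 from 20770050 to 20815067, differed in the direction opposite to Col5a1. It was at 4 and 4 under DMSO, 4 and 3 under PFI-3, 3 and 2 under BI-9564 and 2 and 1 under P+B. The P+B and BI-9564 libraries lay below DMSO, with a difference for P+B of -1.03 (SE 0.36, limma adjusted p = 0.169). At these levels 1 unit of the whole-number scale is a large part of the value.

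Col6a5, a type VI chain on chromosome 9 from 105856078 to 105960643, was at 4 and 2 under DMSO, 1 and 4 under PFI-3, 4 and 2 under BI-9564 and 0 and 2 under P+B. Col9a2, a type IX chain of cartilage fibrils on chromosome 4 from 121039385 to 121055322, was at 1 and 4 under DMSO, 3 and 3 under PFI-3, 1 and 3 under BI-9564 and 1 and 1 under P+B. For both genes the P+B and DMSO libraries touched or overlapped.

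Counting the direction of the libraries, 4 of the 9 detected genes had both P+B libraries under both DMSO libraries (Col18a1, Col7a1, Col4a1 and Col5a3), against 17.5% of the 13101 genes with a mean of 1 or more. Another 3 had both above (Col4a2, Col5a1 and Col27a1), against 26%. With PFI-3 the counts were 3 below (Col18a1, Col7a1 and Col4a1) and 0 above, against 11.8% and 14.9%, and with BI-9564 they were 3 below (Col18a1, Col7a1 and Col5a3) and 2 above (Col5a1 and Col27a1), against 16.5% and 21%. Over the 5 tested genes the median difference with P+B was -0.26 against 0.06 over all 10222 genes, with 3 of 5 below 0 against 41.7% of all genes. The collagen genes therefore had members on both sides, and Col7a1 was the one past the test.

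All 44 collagen rows together gave 193 and 177 under DMSO, 155 and 162 under PFI-3, 158 and 150 under BI-9564 and 127 and 144 under P+B. The means were 185 ± 11.3 under DMSO, 158.5 ± 4.95 under PFI-3, 154 ± 5.66 under BI-9564 and 135.5 ± 12 under P+B (SD, n = 2). Every inhibitor library was below both DMSO libraries, and an exact permutation test of 2 against 2 libraries cannot go below p = 0.333, so no p is given for these sums.

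The differences in the sum were read by gene. The mean sum with P+B differed from DMSO by -49.5, with -28 in Col7a1 and -22 in Col18a1. The difference was -31 for BI-9564, with -22.5 in Col7a1 and -15 in Col18a1. It was -26.5 for PFI-3, with -17.5 in Col7a1 and -6 in Col18a1. Col18a1 held between 48.7 and 57.4% of the collagen sum in every library, while the share of Col7a1 was 24.4% and 22.6% under DMSO, 16.1% and 16.7% under PFI-3, 14.6% and 12.7% under BI-9564 and 11% and 11.8% under P+B.

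**Figure D3:**
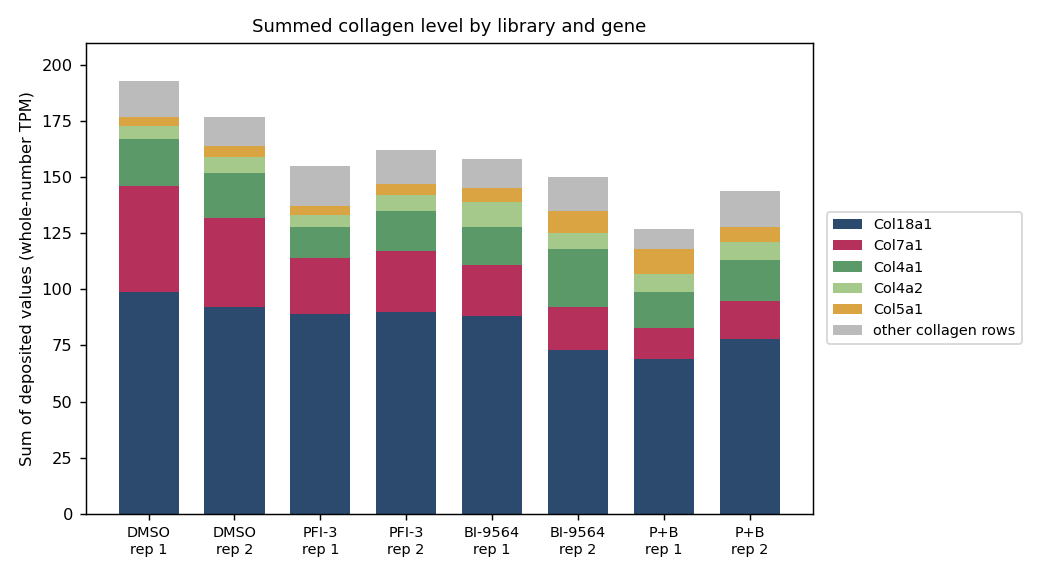
Sum of the deposited values (whole-number TPM, y axis from 0) of the 44 collagen rows in each of the 8 libraries, stacked by gene with the genes outside the 5 tested in grey. The bars are highest with DMSO (193 and 177) and lowest with P+B (127 and 144), and Col18a1 is the largest segment in every bar.

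The genes that act on collagen were then read from 4 lists. Of 15 genes for processing and cross-linking, 6 were detected and 5 were tested. All 5 tested genes were called lower with P+B, against 2.72% of all genes, with a median difference of -1.39 against 0.06 over all genes. Loxl4, with a mean of 5.25, reached the mean of 5 only through its DMSO values of 11 and 9. It thus entered the test through the group where it was high. The list was also chosen with earlier results of these data known, so the count is a description. Pcolce, which enhances the removal of the carboxyl propeptide of procollagen, was at 290 and 251 under DMSO, 255 and 245 under PFI-3, 135 and 126 under BI-9564 and 122 and 121 under P+B. The PFI-3 values ran into those of DMSO, and the BI-9564 and P+B libraries formed a separate low set. It fell by 1.14 with P+B (limma adjusted p = 0.00113) and by 1.04 with BI-9564 (adjusted p = 0.0304), and the second call was lost without any 1 of the 8 libraries (adjusted p from 0.0514 to 0.26). With P+B it kept its call without any 1 library (adjusted p from 0.0052 to 0.0283).

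Tgm2, a transglutaminase that cross-links matrix proteins, was at 26 and 21 under DMSO, 11 and 7 under PFI-3, 9 and 4 under BI-9564 and 3 and 2 under P+B. DMSO stood above all others and P+B below all others. It fell by 2.81 with P+B (limma adjusted p = 0.00691). With BI-9564 its difference was -1.79 (adjusted p = 0.12), which passed with the replicate block (adjusted p = 0.0252). The P+B call was lost without DMSO replicate 1 (adjusted p = 0.0825), without DMSO replicate 2 (0.0626) or without P+B replicate 2 (0.0753).

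Loxl4, a lysyl oxidase family enzyme, was at 11 and 9 under DMSO, 6 and 6 under PFI-3, 4 and 3 under BI-9564 and 2 and 1 under P+B, while Lox was at 0 in all libraries. It fell by 2.16 with P+B (limma adjusted p = 0.0155), a call lost without DMSO replicate 1 (adjusted p = 0.109), DMSO replicate 2 (0.0823) or P+B replicate 2 (0.0758). The groups followed one another downward with no overlap, in the order seen for Col7a1.

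Pcolce2, a paralogue of Pcolce, was at 33 and 46 under DMSO, 33 and 46 under PFI-3, 29 and 21 under BI-9564 and 12 and 17 under P+B. The DMSO and PFI-3 values were the same numbers, and both P+B libraries were the lowest. It fell by 1.39 with P+B (limma adjusted p = 0.0249), a call lost without DMSO replicate 1 (adjusted p = 0.0824), DMSO replicate 2 (0.146), P+B replicate 1 (0.141) or P+B replicate 2 (0.0876).

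Bmp1, the proteinase that removes the carboxyl propeptide, was at 10 and 11 under DMSO, 6 and 5 under PFI-3, 9 and 6 under BI-9564 and 4 and 3 under P+B, and it was named after its values were seen. It fell by 1.36 with P+B (limma adjusted p = 0.0428), and the call was lost without any 1 of the 8 libraries (adjusted p from 0.0566 to 0.179).

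Against PFI-3, Pcolce with P+B differed by -1.03 (limma adjusted p = 0.00702) and Pcolce2 by -1.39 (adjusted p = 0.0461), where lower calls numbered 107 of 10222 (1.05%). The call of Pcolce was lost without PFI-3 replicate 1 (adjusted p = 0.107), PFI-3 replicate 2 (0.0972) or P+B replicate 2 (0.111), and that of Pcolce2 without any 1 library (adjusted p from 0.0828 to 0.264). With the replicate block, Loxl4 and Tgm2 passed as lower in that comparison too, with 2.4% of all genes. With BI-9564, Pcolce differed from PFI-3 by -0.93 (adjusted p = 0.0207), also lost without any 1 library (adjusted p from 0.0925 to 0.233), with lower calls for 0.0783% of genes. P+B against BI-9564 gave 0 calls in the list, against 0.196% of all genes.

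**Figure D4:**
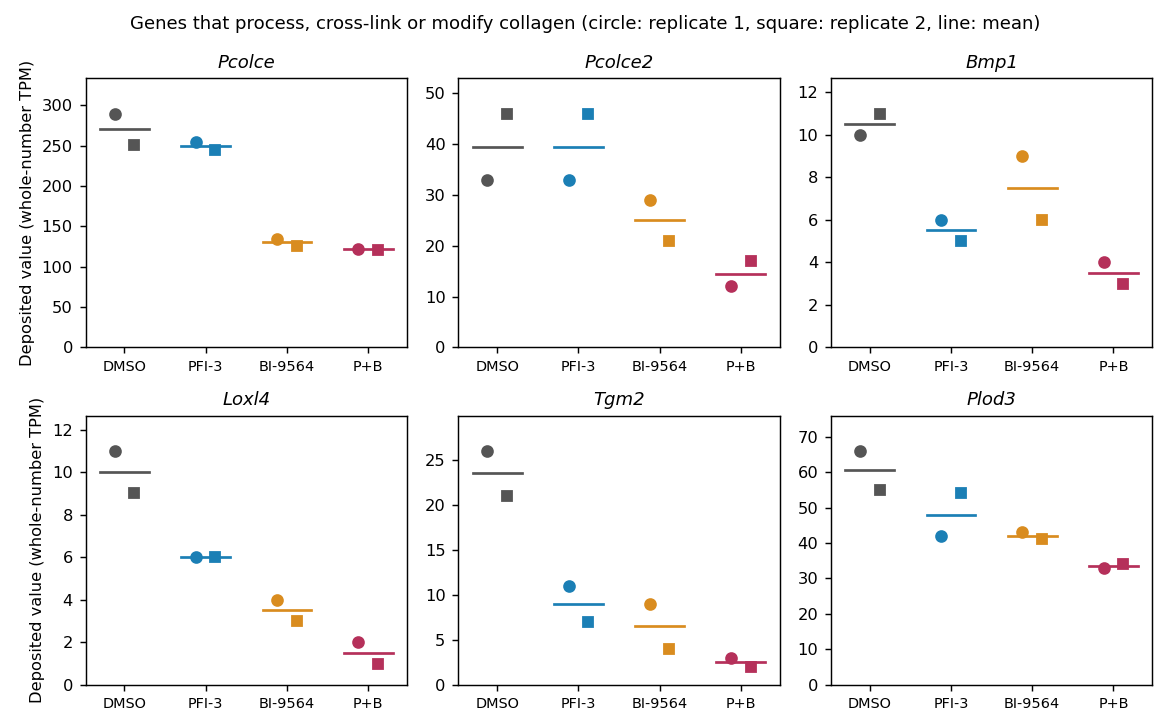
Deposited value (whole-number TPM, y axis from 0, own scale for each gene) of 5 genes that process or cross-link collagen and of Plod3, a collagen-modifying enzyme, in the 4 groups, with a circle for replicate 1, a square for replicate 2 and a line for the group mean. In all 6 panels both P+B libraries lie below both DMSO libraries, and Pcolce separates DMSO and PFI-3 (245 to 290) from BI-9564 and P+B (121 to 135).

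Of 22 enzymes and chaperones of collagen folding, 19 were detected and 12 tested. With P+B, 1 was called lower and 0 higher, against 2.72% and 1.28% of all genes. Of the 12, 3 lay below 0 (41.7% of all genes), and the median was 0.22 against 0.06 over all genes. The called gene was Plod3, which hydroxylates and glycosylates lysines of collagen. It was at 66 and 55 under DMSO, 42 and 54 under PFI-3, 43 and 41 under BI-9564 and 33 and 34 under P+B, and fell by 0.83 with P+B (limma adjusted p = 0.0228). That call was lost in 6 of the 8 fits that left out 1 library, all except those without a PFI-3 library, with adjusted p up to 0.134. Colgalt1, a collagen galactosyltransferase (0.30, adjusted p = 0.0784), P4ha1, a prolyl hydroxylase subunit (0.65, adjusted p = 0.0992), and Mia3, which loads procollagen for export (0.38, adjusted p = 0.155), had positive differences with P+B that did not pass. Plod2, which hydroxylates lysines of the telopeptides, was at 27 and 30 under DMSO, 25 and 25 under PFI-3, 45 and 45 under BI-9564 and 30 and 34 under P+B, and it too was named after its values were seen. Its difference with BI-9564 was 0.64 (limma adjusted p = 0.115), which passed as higher with the replicate block (adjusted p = 0.0389), as did 0.489% of all genes, and it also passed as higher against PFI-3 under the block.

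Of 12 collagen receptors, 3 were detected and tested, with Itga1, Itga2, Itga11, Ddr2, Gp6, Lair1 and Mrc2 at 0 in all libraries. None was called with P+B, where 2.72% of all genes were called lower and 1.28% higher. All 3 lay below 0, as did 41.7% of all genes, and the median was -0.55 against 0.06 over all genes. Itgb1, the beta subunit of collagen-binding integrins (-0.41, limma adjusted p = 0.0266), and Ddr1, a receptor tyrosine kinase for collagen (-0.55, adjusted p = 0.0464), had adjusted p under 0.05 with a fold under 1.5. Adgrg1, an adhesion receptor, was at 61 and 63 under DMSO, 50 and 46 under PFI-3, 49 and 45 under BI-9564 and 44 and 21 under P+B, with a wide gap between its P+B libraries. Its difference was -1.0 (limma adjusted p = 0.0808), and it passed as lower with the replicate block (adjusted p = 0.0369), as did 4.1% of all genes, and without P+B replicate 1 (-1.52, adjusted p = 0.0108), while without P+B replicate 2 it was -0.48 (adjusted p = 0.176).

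All 10 partners of type IV collagen in the basement membrane were tested, and 0 was called with P+B, where 2.72% of all genes were called lower and 1.28% higher. Of the 10, 7 lay below 0 (41.7% of all genes), and the median was -0.14 against 0.06 over all genes. Hspg2, the perlecan gene, differed by -0.40 (limma adjusted p = 0.0422) with a fold under 1.5. The laminin genes Lama1 (-0.47, adjusted p = 0.324) and Lamc1 (-0.15, adjusted p = 0.324) and Sparc, which binds collagen IV (-0.57, adjusted p = 0.117), did not pass. With the replicate block the limma adjusted p was 0.25 for Lama1, 0.208 for Lamc1 and 0.00147 for Sparc. Sparc was still not called there, as its fold of 1.48 was under 1.5.

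Some genes on the marker lists also differed between the groups. Of 6 endothelial markers, 2 were detected (Pecam1 and Tek), with Cdh5, Tie1 and Emcn at 0 in all libraries. The list summed to 59 to 65 under DMSO, 50 to 57 under PFI-3, 31 to 35 under BI-9564 and 27 to 30 under P+B. That is the order seen for Col7a1. Most of each sum was Pecam1, at 53 and 53 under DMSO and 25 and 25 under P+B. Whether the sum reflects endothelial cells was not tested. Pecam1 was called lower with P+B, as were 2.72% of all genes, and with BI-9564, as were 0.0783%. Tek was called lower with P+B only under the replicate block, as were 4.1% of all genes. Tek, with a mean of 5.75, reached the mean of 5 only through its DMSO values of 12 and 6. The stem cell markers summed to 4000 to 5195 under DMSO, 4407 to 5430 under PFI-3, 3538 to 4590 under BI-9564 and 3692 to 4669 under P+B. Tdgf1 was the 1 of 9 called lower with P+B, against 2.72% of all genes. Under the block Esrrb, at 86 and 58 under DMSO and 141 and 100 under P+B, was called higher, as were 299 of 10222 genes. The block also had Tdgf1 called lower with BI-9564 against DMSO, as were 1.04% of all genes. Against PFI-3, BI-9564 had Tdgf1 called lower, as were 0.0783% of all genes. With the block Nanog, Klf4, Esrrb, Zfp42 and Pecam1 were called lower there as well, where lower calls numbered 100 of 10222. Jun had overlapping values in all groups, but within same-numbered libraries it was lower with PFI-3 and with P+B than with DMSO. For replicates 1 and 2 it was at 1970 and 2877 under DMSO and 1570 and 2227 under PFI-3. It was at 2071 and 3011 under BI-9564 and at 1569 and 2159 under P+B. The part of these in the collagen results was not tested.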

How the data were processed

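The 8 libraries are RNA-seq of JUN-induced mouse embryonic stem cells, 2 per group, grouped by their labels. The submitters' processing notes name bcl2fastq, Bowtie2 2.2.5, RSEM 1.3.0 and mm10; the annotation and strand setting are not given in the sources used here. The authors deposited a score per gene, TPM made whole numbers, in a single table of 50600 rows, of which 187 repeat a name; no counts were used here, so neither the depth nor the read error is known and no count model was run. Values were taken as log2(value + 1) and fitted with limma 3.58.1 (R 4.3.3, trended moderation, Benjamini-Hochberg) on the 10222 genes with a mean of 5 or more, all 8 libraries in a single fit with 4 residual degrees of freedom. Called means adjusted p under 0.05 and a fold of 1.5 or more. The procedure was checked on simulated data whose libraries varied independently, without the shared replicate deviation described below, so that check does not cover it.

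Same-numbered libraries deviated together from their group means (Pearson r over genes 0.143 to 0.236 in the 6 pairs of groups), which meets the condition for reading the numbers as pairs. The fit above has no pairing term. A blocked fit on the replicate number was an alternative, given where it changed the call of a gene named here and for the laminin genes and Sparc. The other alternatives changed the pseudocount, filter, scaling, trend and libraries. The bounds for whole numbers and the blocked fit of the low genes were added after seeing the data. The members and lists were chosen with earlier results of these data known. All collagen genes with a mean of 1 or more are named, and from each list the up to 4 tested genes with the smallest p for P+B against DMSO. Gene positions are from GENCODE M21 (GRCm38), promoter windows from RefSeq (GRCm38.p6). Protein sequences were not used here.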

Additional observations from a re-analysis of the deposited data

How the results depend on the processing

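The depth is unknown and whole numbers make values under 5 coarse. The count of collagen genes called with P+B against DMSO was 1 under all alternatives except the fit of only the 4 libraries compared (0; Col7a1 adjusted p = 0.1, a fit with fewer libraries) and, when a library was left out, ranged from 0 to 1. With the replicate block it was 1 with BI-9564 against DMSO (Col7a1), in place of 0. The block changed no other collagen call. Taking a mean of at least 5 as detected gave 5 collagen genes in place of 9. Direction reversed only for differences that did not pass. With PFI-3 against DMSO, Col5a1 was -0.091 under quantile normalization and -0.047 under median centring. With BI-9564 against DMSO, Col4a1 was -0.028 and -0.011 under the same scalings. Against the sum of the single compounds, Col4a2 was 0.031 under quantile normalization.

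Leaving out 1 library reversed further differences, given as their ranges. With PFI-3 against DMSO these were Col5a1 (-0.132 to 0.132), Col4a2 (-0.319 to 0.096), P4ha1 (-0.227 to 0.121), Lama1 (-0.17 to 0.152) and Mia3 (-0.072 to 0.233). With BI-9564 against DMSO they were Col4a1 (-0.256 to 0.329) and Mia3 (-0.03 to 0.215). With P+B against PFI-3 it was Col4a1 (-0.08 to 0.261). With P+B against BI-9564 they were Col18a1 (-0.259 to 0.007), Col4a2 (-0.415 to 0.17) and Col5a1 (-0.167 to 0.485). Against the sum they were Col18a1 (-0.168 to 0.099), Col4a1 (-0.239 to 0.346), Col4a2 (-0.304 to 0.281) and Col5a1 (-0.167 to 0.485). Col7a1 kept its direction in every comparison and alternative. Of the other genes called with P+B against DMSO, Plod3 (adjusted p = 0.0636), Pcolce2 (0.0848) and Bmp1 (0.0767) lost the call without a filter on low values, Pcolce2 without the trend (0.0501), and all 6 in the 4-library fit (0.1 to 0.151). Pcolce with BI-9564 against DMSO lost its call with a mean of at least 1 (0.0643), without a filter (0.0862), without the trend (0.0845) and in the 4-library fit (0.334), and against PFI-3 with the same alternatives (0.0524, 0.123, 0.101 and 0.334). With P+B against PFI-3, Pcolce2 lost it under the same 4 (0.0834, 0.138, 0.0895 and 0.249) and Pcolce under the last 2 (0.0531 and 0.215). Ddr1 passed under quantile normalization (0.0374) and median centring (0.0243). Over all genes, P+B against DMSO gave 278 lower and 131 higher calls, against 419 and 299 with the block, 156 and 45 without a filter, 0 and 0 in the 4-library fit (1962 at an unadjusted p under 0.05), 305 and 81 under quantile normalization and 401 and 86 under median centring. Leaving out 1 library gave 61 to 207 lower and 6 to 61 higher.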
